A study of Mus musculus with 37 samples.

Results

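Lung RNA of B6 and A/J fetuses at E15.5 was compared at the earliest age sampled in the study. The comparison rests on 6 of the 37 arrays of the series, 3 from C57BL/6J (B6) and 3 from A/J mice, chosen by the strain and time in their labels. Both are inbred strains without any engineered allele or treatment, and B6 pups are born about a day before A/J pups. Each replicate was a litter, from which the lungs of 3 males were pooled, and RNA of the whole right lung was hybridized to Affymetrix Mouse Gene 1.0 ST arrays. Values are log2 after robust multichip averaging (RMA), so that a difference of 1 is a 2-fold change. Of 35556 probe sets, 21789 carried exactly 1 gene symbol and stood for 19938 genes. A gene was called when limma gave a Benjamini-Hochberg adjusted p under 0.05 over these probe sets and the strains differed at least 1.5-fold. Differences are B6 minus A/J on the log2 scale (n = 3 litters per strain), with the standard error (SE) of the fit. The SE and p-values rest on the spread between litters pooled over the 12 groups of strain and time. They do not rest on the 6 samples of E15.5 alone.

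At E15.5 the mouse lung is in the pseudoglandular stage, in which epithelial tubes branch into mesenchyme and the airways begin to form secretory and ciliated cells. Type I and type II alveolar cells differentiate in the canalicular and saccular stages that follow, when type II cells fill with surfactant. Inbred strains differ in many inherited variants, among them deletions, duplications and insertions that change the mRNA level of a gene in every tissue and at every age. In RNA of a whole organ, fewer cells of a type and less RNA per cell cannot be told apart.

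The 6 samples carried lung markers, but in the first replicate of each strain genes of the liver and heart also read high. Whether RNA of these neighbouring organs was carried over was not tested. Sftpc mRNA, which encodes surfactant protein C, lay between 12.36 and 13.17 in all 6 samples, far above the array medians of 6.91 to 6.95. The mean of 23 liver genes was 6.44 in A/J replicate 1 and 7.21 in B6 replicate 1, against 5.42 to 5.56 in the other 4 samples. The mean of 25 heart genes was 7.89 in A/J replicate 1 and 7.18 in B6 replicate 1, against 6.51 to 6.64 in the others. Alb, which encodes albumin, read 9.89, 5.65 and 6.02 in A/J and 11.49, 5.59 and 5.47 in B6. Nppa, which encodes the atrial natriuretic peptide, read 10.82, 5.60 and 6.00 in A/J and 7.03, 6.02 and 5.74 in B6. Replicate 1 was thus the highest of its strain for both genes. In the other replicates the strains overlapped for Nppa, while for Alb both B6 samples lay slightly below both A/J samples. The mean of 11 erythroid genes was also highest in the first replicates, at 7.24 in A/J and 7.70 in B6 against 6.89 to 7.09. None of the liver or heart genes was called between the strains, which with 0.863% of all probe sets called is no result about these lists. By limma's adjusted p alone, 1 liver gene was higher in B6. None of the 4 genes measured in a list of Y-linked genes and Xist was called either.

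**Figure D1:**
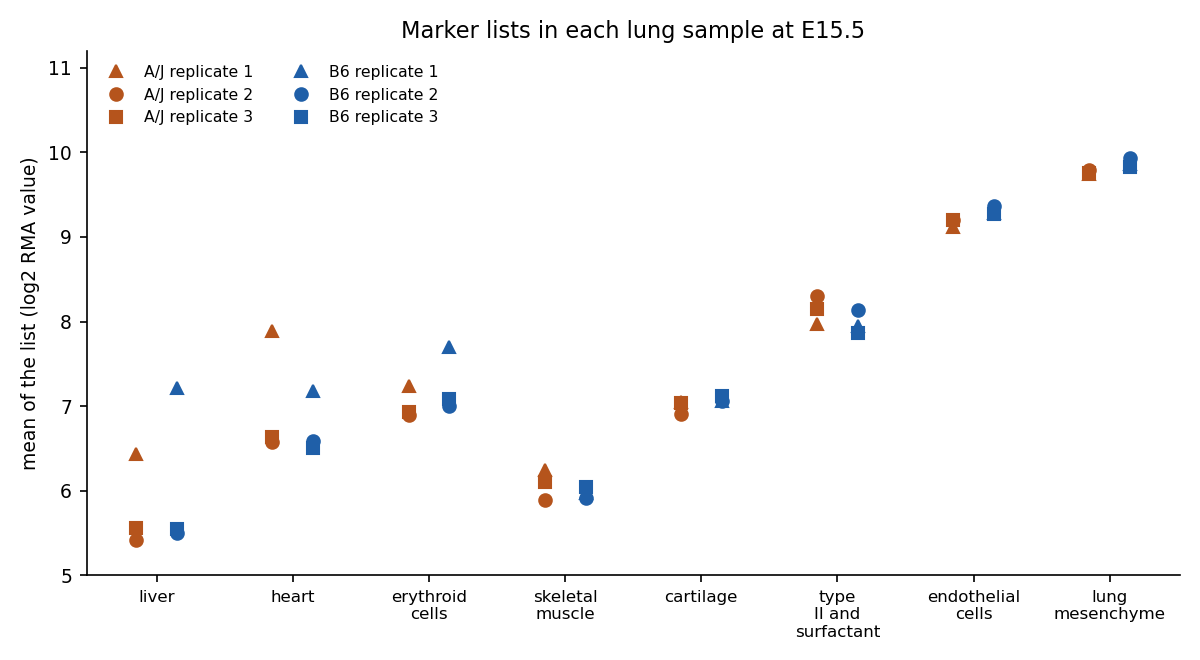
Mean log2 RMA value of the genes of 8 marker lists (vertical axis, lists along the horizontal axis) in each of the 6 samples at E15.5, A/J in orange and B6 in blue, with the marker shape giving the replicate. The triangles of replicate 1 stand above the other replicates for liver, heart and erythroid cells, at up to 7.21, 7.89 and 7.7, and not for endothelial cells or lung mesenchyme.

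The liver and heart lists, and any probe set in which replicate 1 of a strain lay at least 1.5-fold above both others, were set aside, 111 probe sets in all. Only 1 of the called probe sets was among them. It measured Hbb-y, an embryonic beta-like globin made in primitive red cells, at 10.52, 9.62 and 8.48 in A/J and 11.49, 11.13 and 11.27 in B6. All B6 samples exceeded all A/J samples, although the A/J samples lay far apart (Hbb-y difference 1.76 ± 0.28 SE). In a fit of the E15.5 samples alone Hbb-y was not called. The erythroid list was highest in replicate 1 of each strain, and its part in the Hbb-y difference was not tested. With replicates 2 and 3 alone, the median difference was 0.01 for the liver list and -0.08 for the heart list, compared to 0.32 and -0.31 with all samples.

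The strains differed in few genes at this age. A total of 188 probe sets were called (0.863% of those tested), of which 108 (0.496%) were increased and 80 (0.367%) decreased in B6 compared to A/J lung. The adjusted p alone was passed by 2.46% of probe sets, 1.31% higher and 1.14% lower in B6. They stood for 180 genes, and 187 probe sets remained once the liver and heart genes were set aside. The median absolute difference of the called probe sets was 0.78, against 0.08 over all probe sets, and 48 differed at least 2-fold. The 3 replicates of each strain did not overlap in 184 of the 188, compared to 18.2% of all probe sets. Of the calls, 126 were kept when each of the 6 samples was left out in turn. The share of probe sets called was 1.18% at E16.5, 1.75% a day later, 4.05% at E18.5 and 4.08% at birth (PN0), and the difference between these shares was not tested.

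The genes described next were the 15 largest calls in each direction among those whose strains did not overlap and that were not set aside, so that the absence of overlap in them was part of the choice. The largest difference was a decrease of Cytl1, a small secreted protein first described in CD34-positive blood progenitors and made by cartilage cells. Cytl1 read 10.22, 10.27 and 10.48 in A/J and 8.08, 8.03 and 7.88 in B6, a difference of -2.33 ± 0.18 (SE, limma adjusted p = 3.5e-10). Every B6 sample lay more than 4-fold below every A/J sample. Tnfsf10, which encodes the death ligand TRAIL, read 7.36, 7.73 and 7.81 in A/J and 6.23, 6.46 and 6.03 in B6 (-1.39 ± 0.14 SE). Hmox1, the heme oxygenase that breaks down heme, read 9.73, 9.80 and 9.43 in A/J and 8.40, 8.32 and 8.25 in B6 (-1.33 ± 0.14 SE). Neither gene overlapped between the strains. Pttg1, the securin that keeps sister chromatids from separating before anaphase, fell by 1.30 ± 0.13 (SE), with 7.46 to 7.58 in B6 and 8.70 to 9.0 in A/J. Gbp4, an interferon-inducible GTPase, fell by 1.32 ± 0.22 (SE), from 6.73 to 6.85 in A/J to 5.30 to 5.72 in B6.

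Other genes with the largest decreases in B6 belonged to unrelated functions. Rps3a1, which encodes a ribosomal protein, fell by 1.67 ± 0.15 (SE), from 11.77 to 11.81 in A/J to 10.00 to 10.19 in B6. Such ribosomal genes have many near-identical copies in the genome, and whether the probe set reads 1 locus was not tested. Tbcb, a tubulin folding cofactor, was -1.27 ± 0.10 (SE), Rgs4, a regulator of G protein signaling, -1.15 ± 0.19 (SE), and Slc15a2, a peptide transporter, -1.12 ± 0.13 (SE). Pianp, a membrane ligand of a paired immunoglobulin-like receptor, was -1.15 ± 0.12 (SE), and the predicted gene Gm13375 was -1.13 ± 0.15 (SE).

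Among the genes with the largest increase in B6 were a pair of ferlins. Dysf encodes dysferlin, which reseals damaged muscle membranes, and Myof encodes its relative myoferlin. Dysf read 5.99, 6.09 and 6.24 in A/J and 7.61, 7.42 and 7.58 in B6 (1.43 ± 0.17 SE, limma adjusted p = 9.1e-07). Myof read 7.82, 7.82 and 7.93 in A/J and 9.29, 9.26 and 9.33 in B6 (1.44 ± 0.13 SE). The strains were well apart in both ferlins. Of 15 skeletal muscle markers 0 were called, which with 0.863% of all probe sets called is no result about this list. Their median difference was -0.09, and whether muscle RNA had a part in the ferlin differences was not tested.

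Glp1r, the receptor of the gut hormone GLP-1 and abundant in lung, read 6.33, 7.19 and 6.82 in A/J and 8.10, 8.46 and 7.93 in B6 (1.38 ± 0.18 SE). Col4a6, a basement membrane collagen chain, read 5.65, 5.45 and 5.90 in A/J and 7.24, 7.23 and 7.20 in B6 (1.56 ± 0.25 SE). A2m, a protease-trapping plasma protein, read 6.25, 6.06 and 6.11 in A/J and 7.65, 7.53 and 7.24 in B6 (1.33 ± 0.19 SE). The lowest B6 sample exceeded the highest A/J sample in all of these. Ppbp, a platelet chemokine, was increased by 1.38 ± 0.17 (SE), with 5.86 to 6.17 in A/J and 7.16 to 7.81 in B6. Opcml, a neuronal cell adhesion molecule, was increased by 1.80 ± 0.26 (SE), with 5.80 to 6.33 in A/J and 7.52 to 7.92 in B6. Rec8, a meiotic cohesin, was 1.30 ± 0.14 (SE), Pop4, a subunit of ribonuclease P, 1.28 ± 0.11 (SE), and Dnajc10, a disulfide reductase of the endoplasmic reticulum, 1.25 ± 0.12 (SE) higher. Pop4 ranged from 7.87 to 8.20 in A/J and 9.17 to 9.42 in B6. The uncharacterized transcripts 2410017I17Rik (1.61 ± 0.15 SE) and 2410018L13Rik (1.27 ± 0.22 SE) and the small nucleolar RNA Snord53 (1.34 ± 0.17 SE) completed the set together with Trim12a and G530011O06Rik.

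G530011O06Rik, an uncharacterized X-linked transcript, had the largest fitted increase (2.11 ± 0.55 SE, limma adjusted p = 0.03), but this rested on 1 litter. It read 6.58, 6.25 and 10.57 in B6 and 5.61, 5.60 and 5.86 in A/J. B6 replicates 1 and 2 lay close to A/J, and without replicate 3 the difference was 0.72 and was not called. The call was also lost without any one of the A/J replicates (2.07 to 2.20) and in a fit of the E15.5 samples alone.

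**Figure D2:**
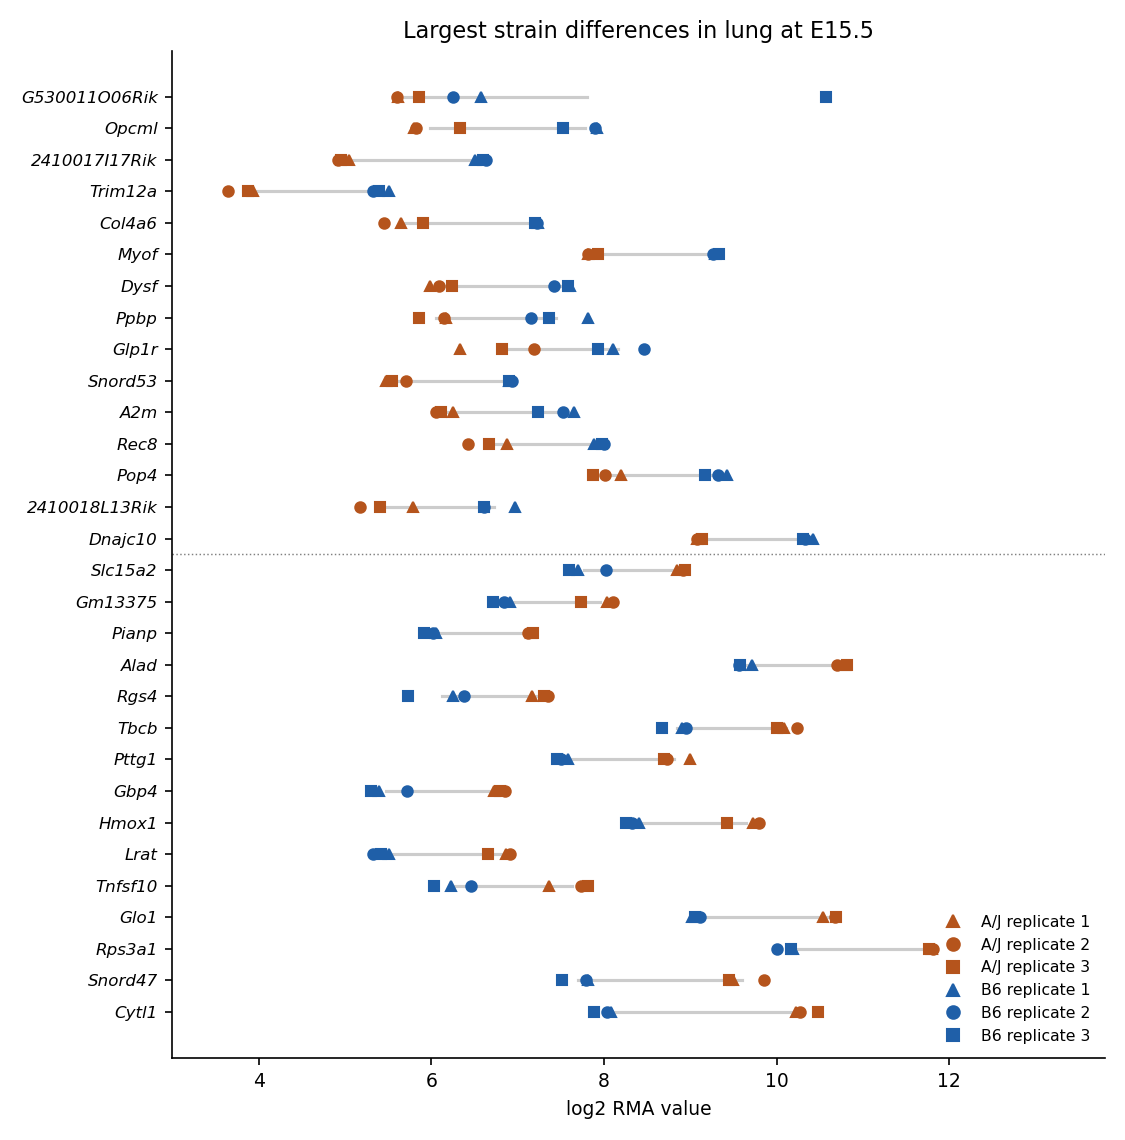
Log2 RMA values (horizontal axis) of the 15 genes with the largest called increase in B6, above the dotted line, and the 15 with the largest called decrease, below it, among genes chosen for strains that do not overlap (this leaves out Scgb1a1) and not set aside (this leaves out Hbb-y). Each point is a litter, the grey line joins the strain means, and for G530011O06Rik 1 B6 litter at 10.57 lies far from the other B6 litters.

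Several differences fell on genes for which one of the strains is known to carry an altered allele, and these served as a check of the strain labels. The alleles are background knowledge and were not read from these arrays. A/J mice carry an insertion in Dysf, B6 mice of the Jackson substrain a deletion in Nnt, and A/J mice a duplication that includes Glo1. Nnt, the mitochondrial transhydrogenase that makes NADPH, read 10.44, 10.35 and 10.35 in A/J and 9.47, 9.43 and 9.34 in B6 (-0.97 ± 0.08 SE, limma adjusted p = 5.3e-09). Glo1, the glyoxalase that detoxifies methylglyoxal, read 10.54, 10.67 and 10.69 in A/J and 9.02, 9.11 and 9.05 in B6 (-1.57 ± 0.09 SE, adjusted p = 9.6e-13). The spread within a strain was below 0.1 (SD) for both genes, and the pair of probe sets for Glo1 gave -1.57 and -1.53. The other 4 genes of this list were not called at E15.5. Hc, which encodes complement C5 and is truncated in A/J, read 5.38 to 5.69 in A/J and 5.33 to 5.76 in B6, a difference of 0.05 ± 0.17 (SE). H2-Ea, the class II chain that B6 mice lack, read 5.66 to 5.82 in A/J and 5.20 to 5.49 in B6 (-0.39 ± 0.15 SE, adjusted p = 0.23). Ifi202b, an interferon-inducible DNA sensor, was at 3.50 to 3.87 in all 6 samples, near the dimmest probe sets, and Apobec3, an antiviral deaminase, differed by 0.01 ± 0.12 (SE) at 1 probe set and 0.40 ± 0.11 (SE) at its dimmer one, which passed by adjusted p alone.

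Some called genes were neighbours on a chromosome and moved together. These neighbours were found after the values were seen. Alad, the second enzyme of heme synthesis, and Hdhd3, a haloacid dehalogenase-like hydrolase, lie 3.8 kb apart on chromosome 4 by RefSeq (GRCm38.p6). Alad read 10.79, 10.70 and 10.82 in A/J and 9.71, 9.56 and 9.58 in B6 (-1.15 ± 0.10 SE), and Hdhd3 read 7.82, 8.14 and 8.05 in A/J and 6.84, 6.91 and 6.97 in B6 (-1.10 ± 0.12 SE). Both neighbours were thus lower in all 3 B6 samples, by nearly equal amounts. Lrat, which esterifies retinol for storage, and Rbm46, an RNA-binding protein of germ cells, lie 16.1 kb apart on chromosome 3. Lrat read 6.87, 6.91 and 6.66 in A/J and 5.51, 5.33 and 5.42 in B6 (-1.39 ± 0.19 SE), and Rbm46 read 9.24, 9.10 and 8.82 in A/J and 8.20, 8.11 and 8.11 in B6 (-0.91 ± 0.11 SE). The strains did not overlap in either gene.

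The 250 bases before the annotated start of each gene of these pairs are shown because both members of a pair moved in one direction. They are reference sequence from RefSeq (GRCm38.p6), which derives from B6, so no A/J base is shown. Each is written 5′ to 3′ on the strand of its gene, which is the minus strand in all 4. Capitals mark the motifs CCAAT and GGGCGG on either strand.
Alad, chr4:62520064-62520313: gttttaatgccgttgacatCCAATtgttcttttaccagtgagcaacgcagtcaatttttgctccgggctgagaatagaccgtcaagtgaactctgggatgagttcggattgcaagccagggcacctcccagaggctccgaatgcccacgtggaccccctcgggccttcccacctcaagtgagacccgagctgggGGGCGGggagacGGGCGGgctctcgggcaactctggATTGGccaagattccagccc
Hdhd3, chr4:62502201-62502450: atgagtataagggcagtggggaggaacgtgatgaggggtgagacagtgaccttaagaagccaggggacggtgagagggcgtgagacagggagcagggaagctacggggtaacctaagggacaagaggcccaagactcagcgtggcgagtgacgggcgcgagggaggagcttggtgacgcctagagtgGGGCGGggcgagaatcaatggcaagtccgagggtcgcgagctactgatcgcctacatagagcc
Lrat, chr3:82903975-82904224: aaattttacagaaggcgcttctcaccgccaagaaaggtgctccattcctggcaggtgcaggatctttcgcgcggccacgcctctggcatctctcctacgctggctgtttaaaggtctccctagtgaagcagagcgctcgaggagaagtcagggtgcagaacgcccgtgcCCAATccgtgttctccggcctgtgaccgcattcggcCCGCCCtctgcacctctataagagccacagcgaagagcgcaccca
Rbm46, chr3:82876484-82876733: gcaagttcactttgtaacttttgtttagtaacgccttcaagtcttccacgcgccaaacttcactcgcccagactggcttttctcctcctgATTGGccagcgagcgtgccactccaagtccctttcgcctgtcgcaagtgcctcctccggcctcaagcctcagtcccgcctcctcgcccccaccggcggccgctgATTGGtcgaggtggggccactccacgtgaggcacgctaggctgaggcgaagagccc
The letters TATAAA occurred in none of the 4 windows, and in 12.4% of 32851 windows of the same length before RefSeq starts. CCAAT occurred at 2 places before Alad and before Rbm46 and at 1 before Lrat, and 33.8% of all windows held it. GGGCGG occurred at 2 places before Alad and at 1 each before Hdhd3 and Lrat, and 32.7% of all windows held it. The pair on chromosome 4 thus shared GGGCGG and the pair on chromosome 3 shared CCAAT, motifs held by about 1 in 3 windows. A match of letters does not show that a factor binds there.

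A run of 3 neighbours on chromosome 6 was increased in B6. Mgp, the matrix Gla protein that keeps cartilage and vessels from calcifying, read 8.81, 8.86 and 9.14 in A/J and 9.92, 10.03 and 10.04 in B6 (1.06 ± 0.11 SE). Art4, which carries the Dombrock blood group, was 0.82 ± 0.14 (SE) and Smco3, a membrane protein, 0.78 ± 0.15 (SE) higher, and neither overlapped between the strains. On chromosome 18, 4 clustered protocadherin beta genes, which encode adhesion molecules best known from neurons, were all lower in B6. The differences were -0.71 ± 0.11 (SE) for Pcdhb7, -0.69 ± 0.16 (SE) for Pcdhb12, -0.64 ± 0.10 (SE) for Pcdhb16 and -0.62 ± 0.16 (SE) for Pcdhb11. Pcdhb11 lost its call without A/J replicate 1 (-0.61) or 2 (-0.49) and without B6 replicate 1 (-0.62) or 3 (-0.55), Pcdhb12 without B6 replicate 3 (-0.58), and Pcdhb16 without A/J replicate 2 (-0.56). Pcdhb11 was also not called in a fit of the E15.5 samples alone. The 4 genes are similar in sequence, and whether their probe sets tell them apart was not tested.

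Other neighbours moved in opposite directions. Trim12a and Trim12c, a pair of related ubiquitin ligase genes of the TRIM family on chromosome 7, differed by 1.60 ± 0.13 (SE) and -0.83 ± 0.17 (SE). Trim12a read 3.93, 3.64 and 3.88 in A/J, at the dim end of the array, and 5.51, 5.33 and 5.40 in B6, while Trim12c read 6.05, 6.15 and 6.07 in A/J and 5.27, 5.19 and 5.31 in B6. B6 was thus the higher strain for Trim12a and the lower one for Trim12c, without overlap. On chromosome 1, Snord47, a small nucleolar RNA released from an intron of the Gas5 host transcript, read 9.50, 9.85 and 9.45 in A/J and 7.81, 7.79 and 7.51 in B6 (-1.90 ± 0.20 SE). Gas5 itself was 0.66 ± 0.11 (SE) higher in B6 by its chosen probe set. The 3 other Gas5 probe sets gave 0.16 to 0.88.

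For some genes the probe sets disagreed, and these were named after their values were seen. For Polr3e, a subunit of RNA polymerase III, 1 probe set read 5.57, 5.63 and 5.70 in A/J and 7.61, 7.61 and 7.90 in B6 (2.07 ± 0.15 SE), while the brighter one differed by -0.13 ± 0.08 (SE). For Hspa8, a constitutive heat shock chaperone, the 3 probe sets gave 1.48 ± 0.19 (SE), -0.02 and -0.03. For Acp1, a small tyrosine phosphatase, 1 of 5 probe sets gave 1.78 ± 0.24 (SE) and the other 4 gave -0.40 to -0.42. The strain difference of these genes thus differed between probe sets, and the cause was not tested. Atf7ip (1.14 against -0.09), Pdia4 (0.67 against 0.04), Itpripl2 (1.20 against 0.39) and Rps9 (-0.61 against 0.05) were likewise called by 1 probe set of 2. Rps9 lost its call without B6 replicate 3 (-0.58). In contrast, both probe sets of Fabp5 gave about the same value, and the pair for Ggh, a lysosomal folate enzyme, held identical values (0.75 ± 0.12 SE) and count as 1 measurement. The 5 probe sets of Fggy, a carbohydrate kinase, were all positive, at 0.24 to 0.90, and 2 were called.

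For several lung cell types no gene of the list was called, which with 0.863% of all probe sets called is no result about these lists. None was called of 14 type I genes, 17 regulators of distal and airway epithelium, 14 endothelial, 15 mesenchymal, 12 smooth muscle and pericyte, or 13 macrophage genes. By limma's adjusted p alone, which 2.46% of all probe sets passed, 3 of these genes differed. Col1a1, the main fibrillar collagen, was 0.42 ± 0.10 (SE) higher in B6, Grhl2, an epithelial transcription factor, 0.29 ± 0.08 (SE) lower, and Mrc1, the macrophage mannose receptor, 0.39 ± 0.09 (SE) lower. With the replicate number as a block Grhl2 no longer passed (adjusted p = 0.13). The endothelial genes were higher in B6 in 12 of 14 cases, but the median was only 0.13, against -0.02 over all probe sets.

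Of 16 type II cell and surfactant genes, 13 were lower in B6 by sign, with a median difference of -0.12, and 1 was called. This was Fabp5, a fatty acid binding protein, which read 8.44, 8.39 and 8.38 in A/J and 7.56, 7.44 and 7.24 in B6 (-0.99 ± 0.11 SE, limma adjusted p = 4e-07). The strains did not overlap. Sftpc read 12.36, 12.88 and 12.99 in A/J and 13, 13.17 and 13.05 in B6 (0.33 ± 0.09 SE, adjusted p = 0.056). The strains were barely apart, at 13 in the lowest B6 sample against 12.99 in the highest A/J sample. A/J replicate 1 was the lowest sample, below the others of its strain. The difference was 1.26-fold and passed neither the adjusted p nor the fold threshold of a call. Sftpa1, which encodes surfactant protein A, read 8.06 to 8.62 in A/J and 7.84 to 8.43 in B6 and overlapped.

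Airway genes gave mixed results. Scgb3a2, an early secretoglobin of airway cells, read 7.66, 7.58 and 7.62 in A/J and 8.35, 8.67 and 8.19 in B6 (0.78 ± 0.16 SE), without overlap. Its call was lost without B6 replicate 2 (0.65). Scgb1a1, the secretoglobin of mature club cells, read 6.84, 7.89 and 4.60 in A/J and 4.90, 4.38 and 4.57 in B6 (-1.83 ± 0.41 SE, limma adjusted p = 0.0085). A/J replicate 3 lay within the B6 range, and the call was lost without A/J replicate 1 (-1.63), A/J replicate 2 (-1.10) or B6 replicate 2 (-1.71). The Scgb1a1 call was also lost in a fit of the E15.5 samples alone. The other 8 airway secretory genes were not called.

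Genes of cilia were mostly higher in B6 by sign. Of 12 measured genes of ciliated cells, 10 were higher by sign, with a median difference of 0.24, the highest of the epithelial lists, and 3 passed by adjusted p alone. Ccdc39, which sets the spacing of dynein arms along the axoneme, read 5.94, 5.94 and 6.22 in A/J and 6.59, 6.73 and 6.56 in B6 (0.59 ± 0.11 SE). It was called, but not without A/J replicate 1 (0.55), A/J replicate 2 (0.55) or B6 replicate 2 (0.54). Foxj1, the regulator of motile cilia, read 6.24, 7.03 and 7.15 in A/J and 7.27, 7.29 and 7.29 in B6 (0.48 ± 0.13 SE), and Dnah11, a dynein heavy chain, 5.42 to 5.55 and 5.90 to 6.12 (0.54 ± 0.11 SE). The A/J samples lay below the B6 samples in all of these, and A/J replicate 1 was the lowest for Foxj1. Foxj1 was called without A/J replicate 2 (0.59) or 3 (0.65), but without A/J replicate 1 its difference was only 0.19. Dnah11 was called without B6 replicate 1 (0.60) and was 0.49 at its lowest over omitted samples. With the replicate number as a block the adjusted p of Foxj1 was 0.075. Deup1, which builds the deuterosomes on which multiciliated cells multiply centrioles, read 5.66, 6.07 and 6.23 in A/J and 6.56, 6.98 and 6.68 in B6 (0.75 ± 0.12 SE). Further cilia genes outside the list were noticed among the calls after their values were seen. They were Morn2 (0.89 ± 0.13 SE), Cfap206 (0.79 ± 0.15 SE), Mns1 (0.71 ± 0.14 SE) and Dynlrb2 (0.67 ± 0.15 SE). Dynlrb2 lost its call without B6 replicate 2 (0.43). In a fit of the E15.5 samples alone, Deup1, Cfap206 and Dynlrb2 were not called.

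**Figure D3:**
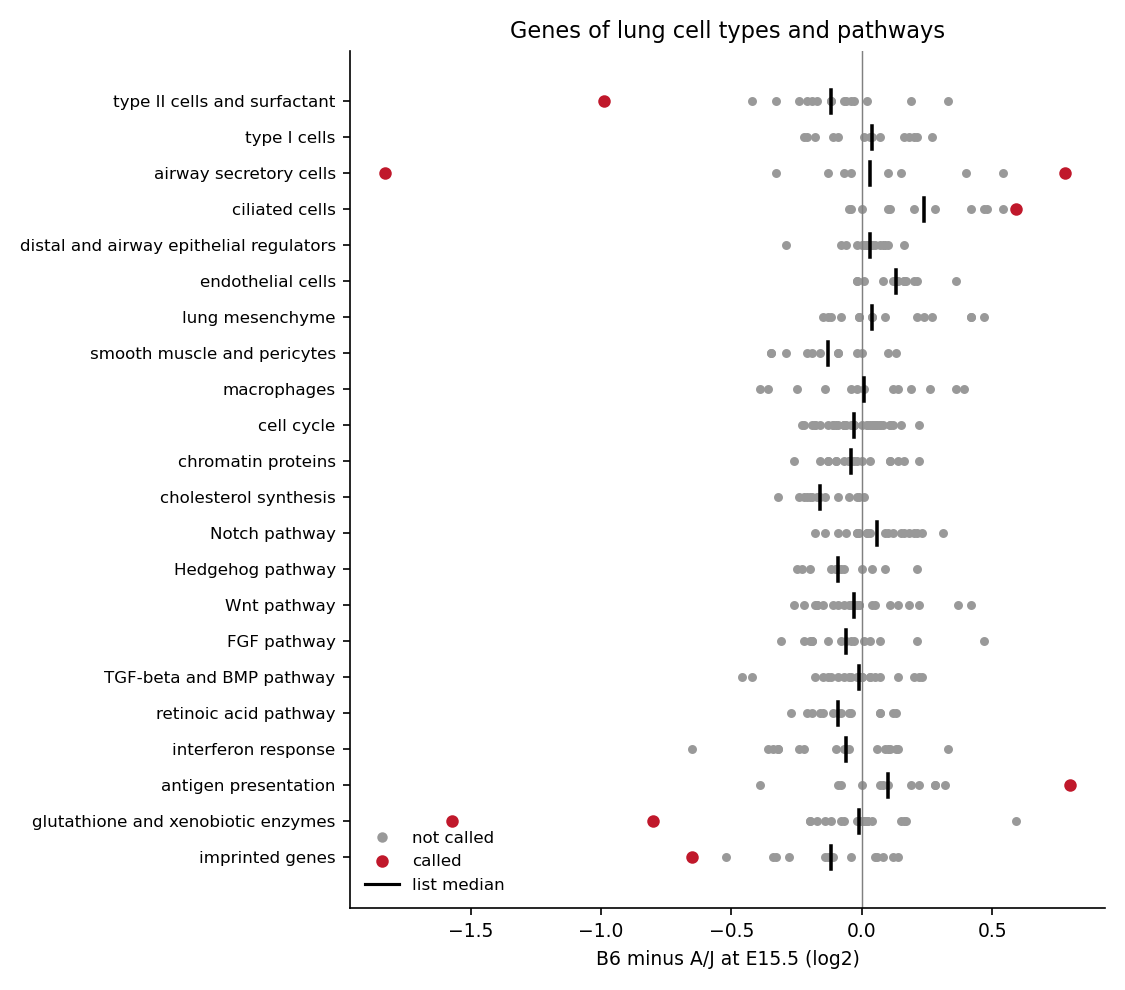
B6 minus A/J difference at E15.5 (log2, horizontal axis) of each measured gene of 22 lists of lung cell types and pathways, with called genes in red and the list median as a black bar. Most genes lie within 0.5 of 0, and the ciliated cell list has its median at 0.24.

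No gene of the cell cycle list or of the signaling lists was called, and at the 0.863% called over all probe sets less than 1 call falls on a list of this size. The securin gene Pttg1, called above, was not in the cell cycle list. None of 37 cell cycle genes and none of 19 chromatin genes was called, and their medians were -0.03 and -0.04. None was called of 20 Notch, 13 Hedgehog, 23 Wnt, 15 FGF, 14 retinoic acid and 12 glucocorticoid pathway genes. In the TGF-beta and BMP list, 0 of 22 were called, and by adjusted p alone Bmp7 (-0.46 ± 0.12 SE) and Bmp5 (-0.42 ± 0.12 SE), ligands of the BMP family, were lower in B6. With the replicate number as a block the adjusted p was 0.069 for Bmp7 and 0.078 for Bmp5. Bmp5 read 10.61 to 10.67 in A/J and 10.15 to 10.31 in B6. Of 14 cholesterol synthesis genes, 13 were lower in B6 by sign and 0 were called, with a median of -0.16.

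A few calls fell in the metabolic, antigen presentation and imprinted lists. Gsta4, a glutathione transferase for lipid peroxidation products, read 9.86, 9.94 and 9.96 in A/J and 9.13, 9.26 and 8.98 in B6 (-0.80 ± 0.08 SE), and with Glo1 made 2 calls among 22 genes of glutathione and xenobiotic metabolism. B2m, the light chain of class I antigen-presenting molecules, read 10.37, 10.60 and 10.35 in A/J and 11.32, 11.23 and 11.16 in B6 (0.80 ± 0.10 SE). The strains were apart in both genes. It was the only call among 13 antigen presentation genes, and 0 of 18 interferon response genes were called. Of 14 imprinted genes, the neighbours Zim1 (-0.65 ± 0.15 SE, called) and Peg3 (-0.34 ± 0.08 SE) and, on another chromosome, Peg10 (-0.52 ± 0.14 SE) were lower in B6 by adjusted p. The call of Zim1 was lost without A/J replicate 1 (-0.56) or B6 replicate 2 (-0.61). Peg10 was called without A/J replicate 3 (-0.66) or B6 replicate 1 (-0.62), but without A/J replicate 1 its difference shrank to -0.37. Among other lists, Upk1b, a uroplakin of the mesothelium, was 0.54 ± 0.14 (SE) and Kit, a growth factor receptor of mast cells, 0.40 ± 0.11 (SE) higher by adjusted p alone.

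Since the later ages were measured in separate litters, they show whether a strain difference recurred. Of the 188 calls, 96 were called in the same direction at E16.5, which is 51.1% of the calls at E15.5 and 37.4% of those at E16.5. Of these, 41 were higher and 55 lower in B6. None was called the opposite way at E16.5 or E17.5, 3 were at E18.5 and 3 were at PN0, Pttg1 among the latter. A total of 39 probe sets, 16 higher and 23 lower in B6, were called alike at all 4 later shared ages, and they stood for 37 genes. Among them were Cytl1, Glo1, Nnt, Alad, Hdhd3, Lrat, Tbcb, Tnfsf10, Rgs4 and Rps3a1, all lower in B6, and Dysf, A2m, Rec8, Pop4, Dnajc10, Opcml and Trim12a, all higher. For Glo1 the difference stayed between -1.57 and -1.82 from E15.5 to PN0. In contrast, 47 calls were called at no later shared age in either direction, and 38 of these were higher in B6.

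**Figure D4:**
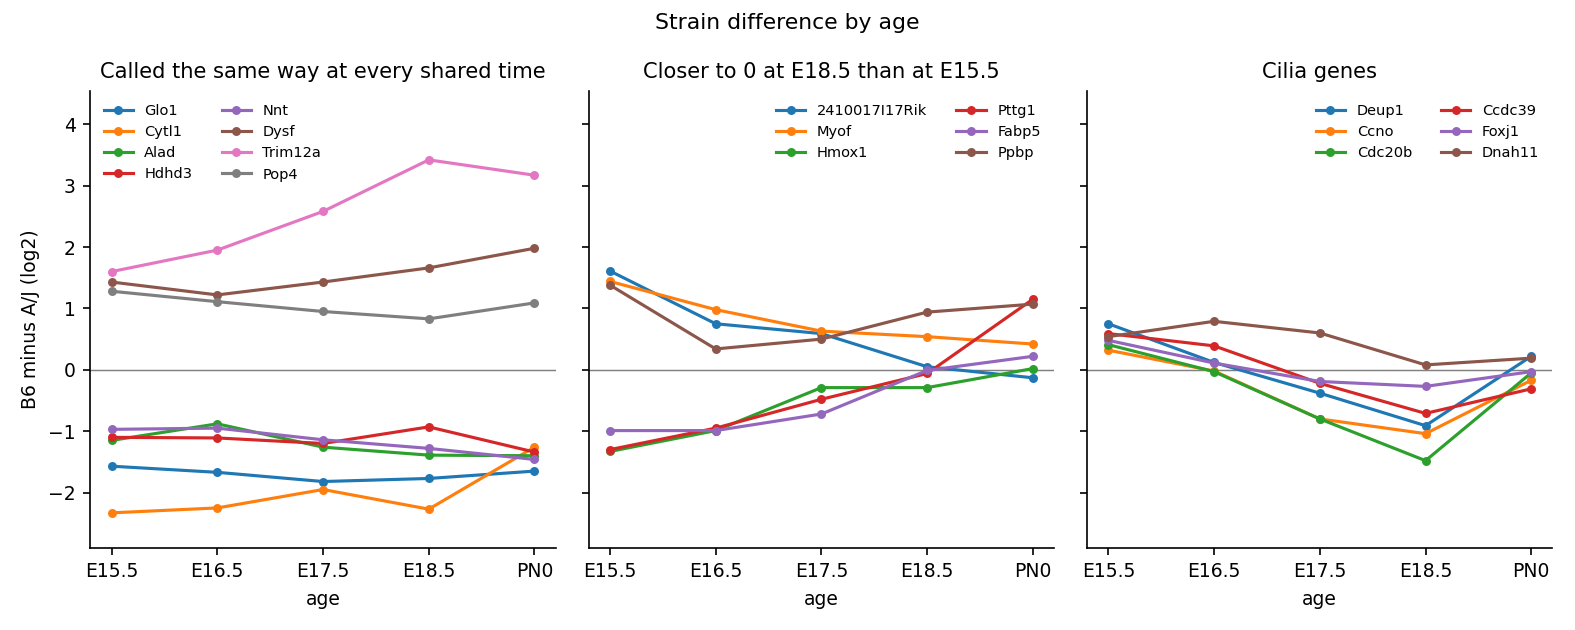
B6 minus A/J difference (log2, vertical axis) at the 5 ages shared by the strains, for genes called alike at each age (left), genes closer to 0 at E18.5 than at E15.5 (middle) and cilia genes (right). Glo1 stays between -1.82 and -1.57, Hmox1 moves from -1.33 to 0.02, and Deup1 crosses from 0.75 at E15.5 to -0.91 at E18.5.

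To test whether a strain difference was different at E15.5, it was set against the mean of those from E16.5 to E18.5 in one contrast. This contrast was called for 94 probe sets (0.431% of those tested), positive in 60 and negative in 34. The split depended on array scaling, as median-centred arrays gave 82 calls with 32 positive and 50 negative, and 66 probe sets were called either way. The count fell to 49 without B6 replicate 1, 52 without B6 replicate 2, 56 without A/J replicate 1, 61 without A/J replicate 3 and 32 without both first replicates. Of the 94, 19 were also called at E15.5.

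Some of the E15.5 differences were larger than later ones. Hmox1 was -1.33 at E15.5, -0.99 at E16.5 and -0.29 at E17.5 and E18.5, and the contrast was -0.81 ± 0.16 (SE, limma adjusted p = 0.012). Between E15.5 and E17.5 the A/J mean went from 9.65 ± 0.20 to 8.13 ± 0.06, while the B6 mean went from 8.32 ± 0.08 to 7.85 ± 0.06 (SD, n = 3). Pttg1 went from -1.30 at E15.5 to -0.06 at E18.5 and was higher in B6 at PN0 (1.15), with a contrast of -0.80 ± 0.15 (SE). Myof shrank from 1.44 to 0.54 at E18.5 (contrast 0.72 ± 0.15 SE) and 2410017I17Rik from 1.61 to 0.05 (contrast 1.14 ± 0.17 SE). The contrasts of Hmox1, Pttg1 and Myof were called with median-centred arrays too, but not without both first replicates. Fabp5 was lower in B6 by 0.99 at E15.5 and at E16.5 and equal at E18.5 (-0.01), though its contrast did not pass (-0.42 ± 0.13 SE, adjusted p = 0.11). Ppbp (contrast 0.79 ± 0.20 SE) and Mgp (0.61 ± 0.13 SE) passed as deposited and not with median-centred arrays.

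Some cilia genes changed order between the strains, as Deup1, Ccdc39 and Mns1 were called higher in B6 at E15.5 and lower at E18.5 (-0.91, -0.71 and -0.68). Dnah11 (0.08), Foxj1 (-0.27), Cfap206 (-0.31), Morn2 (-0.16) and Dynlrb2 (-0.20) were not called at E18.5. In A/J the mean of Deup1 was 5.99 ± 0.29 at E15.5, 7.52 ± 0.10 a day later and 8.02 ± 0.17 at E18.5, against 6.74 ± 0.22, 7.64 ± 0.06 and 7.11 ± 0.07 in B6 (SD, n = 3). B6 was thus higher at E15.5 and lower at E18.5 (contrast 1.14 ± 0.13 SE, limma adjusted p = 2e-05). Cdc20b, which neighbours Ccno and acts in deuterosome release, went from 0.41 ± 0.16 (SE, not called) at E15.5 to -1.48 at E18.5 (contrast 1.18 ± 0.18 SE). At E15.5 Cdc20b was called without A/J replicate 3 (0.66) and was 0.25 without B6 replicate 2. Ccno, a cyclin of multiciliated cells, went from 0.32 ± 0.09 (SE, not called) at E15.5 to -1.04 at E18.5 (contrast 0.94 ± 0.11 SE). The contrasts of Deup1, Ccno, Cdc20b and Ccdc39 (0.77 ± 0.13 SE) were called as deposited, with median-centred arrays and without both first replicates. That of Foxj1 (0.60 ± 0.15 SE) was called only as deposited. For Mns1, Cfap206 and Morn2 it was 0.67 to 0.78, called also with median-centred arrays and not without both first replicates, and for Dynlrb2 it was 0.73, called also without both first replicates and not with median-centred arrays. In the whole ciliated list 2 of 12 were called positive, against 0.275% of all probe sets.

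Of the 6 genes with the most negative contrast and Sftpa1, none was called at E15.5, and all had a higher mean in B6 at E18.5. The contrast holds the E18.5 difference within its later mean, so this higher B6 mean was largely part of the choice. Chil1, a chitinase-like protein, was at 5.17 to 5.97 in A/J and 4.80 to 5.24 in B6 at E15.5 and differed by 1.78 at E18.5 (contrast -1.81 ± 0.26 SE). Lcn2, an iron-binding antibacterial protein, differed by 0.00 at E15.5 and 2.05 at E18.5 (contrast -1.51 ± 0.22 SE). Scd1, a fatty acid desaturase of surfactant lipid synthesis, differed by -0.42 at E15.5 and 1.46 at E18.5 (contrast -1.45 ± 0.20 SE). The contrast was also called for Lyz1 (-1.39), a lysozyme, Retnla (-1.40), a resistin-like secreted protein, Hc (-1.36) and Sftpa1 (-0.91). Retnla alone of these was called at E15.5 when a sample was left out (-1.01 without A/J replicate 1 and -1.10 without B6 replicate 2). Without A/J replicate 2 the Retnla difference was -0.55. For these 7 genes the contrast was called as well with median-centred arrays and without both first replicates. In the type II cell list, 15 of 16 genes had a negative contrast and 4 were called, against 0.156% of all probe sets, with a list median of -0.48 against 0.02 over all probe sets.

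A few other genes changed their strain difference with age. Cym, which encodes the milk-clotting protease chymosin, read 10.52, 11.14 and 10.86 in A/J and 10.15, 10.05 and 9.97 in B6 at E15.5 (-0.78 ± 0.23 SE, limma adjusted p = 0.071) and differed by -2.75 at E18.5. By E18.5 H2-Ea widened from -0.39 to -1.94 and Zim1 from -0.65 to -1.56. Trim12a widened from 1.60 to 3.42 as its B6 level rose from 5.41 to 7.58. At PN0 H2-Ea was still at -1.94, whereas Zim1 (-0.25) and Cym (0.07) were no longer called. The predicted gene Gm24148 was 0.41 ± 0.22 (SE) higher in B6 at E15.5 and 0.75 lower at E18.5. Gas5 grew from 0.66 to 1.64 at its chosen probe set. Another called Gas5 probe set instead went from 0.88 at E15.5 to 0.20 at E18.5, so the probe sets disagreed on the change with age.

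**Figure D5:**
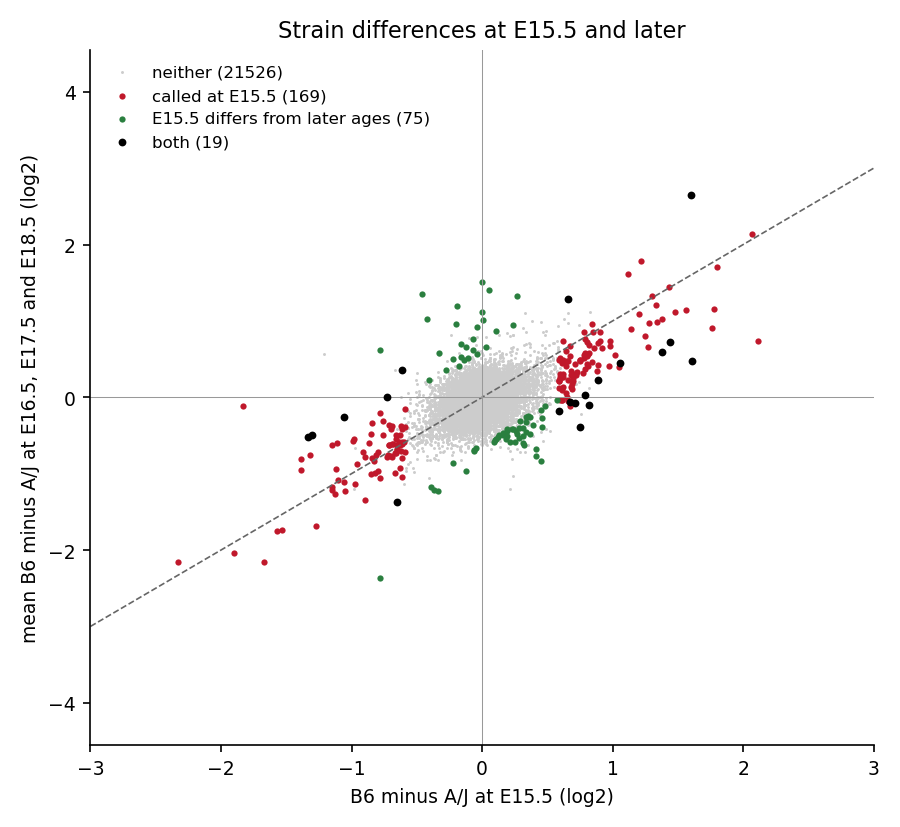
B6 minus A/J difference at E15.5 (log2, horizontal axis) against the mean difference from E16.5 to E18.5 (log2, vertical axis) for 21789 probe sets, on unequal axis scales with the dashed line marking equal values. Probe sets called at E15.5 (red) mostly keep their sign, and the 19 in black were called both at E15.5 and for a difference from the later ages.

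Genes that change as the lung matures were also examined, chosen by their change from E16.5 to E18.5. The E15.5 means took no part in this choice, but both used the spread between litters pooled over the 12 groups. The shares called at E15.5 are thus not independent of the choice. Of 1214 probe sets that rose from E16.5 to E18.5 in both strains, 28 were called at E15.5 (2.31%, against 0.863% of all probe sets), 13 higher and 15 lower in B6, and their median difference was 0.03. Of 815 probe sets that fell, 15 were called (1.84%), 10 higher and 5 lower in B6, and their median was -0.05. The rising set was higher in B6 by sign in 57.1% and the falling set in 36.3%, compared to 42.7% of all probe sets. The calls of either set thus went in both directions.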

How the data were processed

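Right lung RNA was measured on Affymetrix Mouse Gene 1.0 ST arrays in 37 samples of 12 groups of strain and time. Per the labels, the authors made the deposited log2 values by RMA in Affymetrix Expression Console 1.1; a genome build is not given in the sources used here. Values were used as deposited, with no filter or floor. Probes follow the B6 reference genome, and whether A/J bases differ under a probe was not tested.

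Using limma 3.58.1 (R 4.3.3), group means were fitted to 36 replicates, counting the second array of B6 E18.5 replicate 2 with the first, with 24 residual degrees of freedom, and p was adjusted by Benjamini-Hochberg over 21789 probe sets. The code was tested on simulated data. The number of arrays limits the precision. The brightest probe set stood for a gene.

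Named genes were the 15 largest non-overlapping calls each way, up to 4 members of each of 43 lists, all genes of the known-allele list, the 6 largest each way of the contrast with later ages and liver or heart genes highest in replicate 1; those named after their values were seen are marked. The members and lists were chosen with earlier results of these data known. Symbols came from the platform annotation.

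Deviations of samples with equal replicate numbers from their strain means correlated in each pair (r = 0.26, 0.21 and 0.37; 0.08, 0.16 and 0.35 without the probe sets set aside), so the replicate number was also fitted as a block. Other alternatives covered scaling, probe sets tested, dim probe sets, empirical Bayes settings, samples in the model, thresholds, liver and heart levels as covariates and omitted samples. Promoters came from RefSeq (GRCm38.p6). Figures were drawn with matplotlib 3.10.9.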

Additional observations from a re-analysis of the deposited data

Results flagged for a closer look

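For the following genes the strain difference at E15.5 differed from the mean of those from E16.5 to E18.5 by limma's contrast (adjusted p under 0.05, at least 1.5-fold). The difference was more positive for B6 at E15.5 in cilia genes, by 1.18 for Cdc20b, 1.14 for Deup1, 0.94 for Ccno, 0.78 for Mns1, 0.77 for Ccdc39, 0.76 for Cfap206, 0.73 for Dynlrb2, 0.67 for Morn2 and 0.60 for Foxj1. It was also more positive by 1.59 for Cym, 1.14 for 2410017I17Rik, 1.09 for Gm24148, 0.79 for Ppbp, 0.79 for H2-Ea, 0.72 for Myof, 0.72 for Zim1 and 0.61 for Mgp. It was more negative at E15.5 by -1.81 for Chil1, -1.51 for Lcn2, -1.45 for Scd1, -1.40 for Retnla, -1.39 for Lyz1, -1.36 for Hc and -0.91 for Sftpa1. It was also more negative by -1.05 for Trim12a, -0.81 for Hmox1, -0.80 for Pttg1 and -0.63 for Gas5, of which another probe set gave 0.54 (not called). Of these, Ppbp, Mgp, Foxj1, Zim1, Gm24148 and Dynlrb2 did not pass with median-centred arrays.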

How the results depend on the processing

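The calls at E15.5 numbered 188, 187 without the liver and heart genes, 96 were shared with E16.5, and the contrast with later ages gave 94; in that order, all probe sets with or without a symbol gave 367, 364 and 227 (69.8% of the first higher in B6, against 57.4%), probe sets brighter than the median 117, 115, 62 and 54, a fold of 2 gave 48, 47, 23 and 16, and the adjusted p alone 535, 533, 347 and 178. The contrast count was 33 at an adjusted p under 0.01 and 32 without both first replicates. Its share of positive calls was 63.8% as deposited, 39.0% with median-centred arrays, 45.8% after quantile normalization (72 calls), 74.1% for bright probe sets and 43.8% without both first replicates. Leaving out 1 sample of E15.5 gave 172 to 206, 170 to 205, 90 to 98 and 49 to 135. With the replicate number as a block, the 4 counts were 189, 186, 96 and 82 and 180 of the 188 calls were kept; the block changed no call at E15.5 of a gene named in the text, but Bmp7 (adjusted p = 0.069), Bmp5 (0.078), Grhl2 (0.13) and Foxj1 (0.075) no longer passed by adjusted p alone. Over all alternatives, the named genes Nppa, Alb, Lyz1, Lcn2, Hc and Apobec3 took both signs, none of them called. Nppa was -1.21 as deposited and -2.15 to 0.46 over omitted samples. It was 0.68 with liver and heart levels as covariates, 0.46 without A/J replicate 1 and 0.08 without both first replicates. Over omitted samples Alb (0.33 as deposited) ranged from -1.66 to 1.68, Lyz1 (-0.19) from -0.47 to 0.20 and Lcn2 (0.00) from -0.14 to 0.14. Hc (0.05) ranged from -0.07 to 0.17 and Apobec3 (0.01) from -0.09 to 0.21 over all alternatives, both within 0.1 of 0 where negative. The cause of these shifts was not tested. Low signal limits dim genes such as Ifi202b and Trim12a in A/J.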
